A study of Mus musculus with 16 samples.

Results

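The 10 genes described here encode the main parts of 3 vasoactive peptide systems of the heart: the endothelin ligands Edn1 and Edn3, the converting enzyme Ece1 and the receptors Ednra and Ednrb; the apelin ligand Apln and its receptor Aplnr; and adrenomedullin, Adm, with its receptor Calcrl and the receptor partner Ramp2. They were picked by symbol from the 22372 genes in the expression table, and all 10 were found and passed the filter on low values. The table held RNA-seq of heart ventricles in 4 groups of 4 mice, all of the strain C57BL/6J and 10 to 12 weeks old when the experiment began. Transverse aortic constriction (TAC), a suture around the aortic arch that puts the left ventricle under pressure overload, was compared with sham surgery without the suture. THZ1, a covalent inhibitor of the transcriptional kinase CDK7 that also acts on CDK12 and CDK13, was injected intraperitoneally at 10 mg/kg, 2 doses per day, from day 1 to day 60 after surgery. The groups were therefore sham with vehicle (Sham-Veh), sham with THZ1 (Sham-THZ1), TAC with vehicle (TAC-Veh) and TAC with THZ1 (TAC-THZ1). All mice had the same background strain and no transgene was named. RNA came from a small piece of whole ventricle and the drug was systemic, so no result is tied to 1 cell type.

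Endothelin is made as an inactive precursor that ECE1 cleaves. The active peptide constricts vessels mainly through the A receptor on muscle cells, while the B receptor on endothelium releases relaxing factors and clears the peptide. Apelin, secreted largely by endothelial cells in the heart, dilates vessels and strengthens contraction through APLNR. Adrenomedullin is a dilator peptide that binds CALCRL, which reaches the cell surface as an adrenomedullin receptor only when paired with RAMP2 or RAMP3.

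The libraries held 21.4 to 35.8 M (mega) reads in the counted genes. Values are normalized counts, that is reads per gene divided by a size factor for each library. Cardiomyocyte markers such as Myh6 were abundant in every library, with a summed level of 6 markers between 586236 and 1216110. The library TAC-Veh 1 stood furthest from its group mean, with a root mean square deviation of 0.389 on the log2 scale against 0.263 to 0.284 in the other TAC-Veh libraries. It was also the lowest or highest TAC-Veh library for 8 of the 10 genes. In so small a group any library is often an extreme, and the share over all tested genes was not counted. The 8 of 10 therefore cannot show whether TAC-Veh 1 was unusual for these genes. Values without TAC-Veh 1 are given where they alter a result. In whole tissue, fewer cells of a type and less RNA per cell cannot be told apart.

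In TAC-Veh against Sham-Veh, 4 of the 10 genes were higher and 2 lower at an adjusted p under 0.05 (limma), where 21.4% of all 13331 tested genes were higher and 23.6% lower. Edn3, Edn1, Ednrb and Calcrl rose, and Ednra and Apln fell. In constricted hearts 3 genes were called with THZ1: Ednra was higher, and Ednrb and Ece1 were lower, in TAC-THZ1 than in TAC-Veh. This is 1 of 10 higher and 2 of 10 lower, where 15.1% of all genes were higher and 14.2% lower. The calls on Ednrb (adjusted p = 0.0922) and Ece1 (adjusted p = 0.0833, limma) were lost when only the 2 TAC groups were fitted. No member passed the test in sham hearts by limma, DESeq2 or edgeR, 1 of 10 (Edn1) had an unadjusted p under 0.05 in limma, and 0.0225% of genes were higher and 0.045% lower with THZ1.

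**Figure D1:**
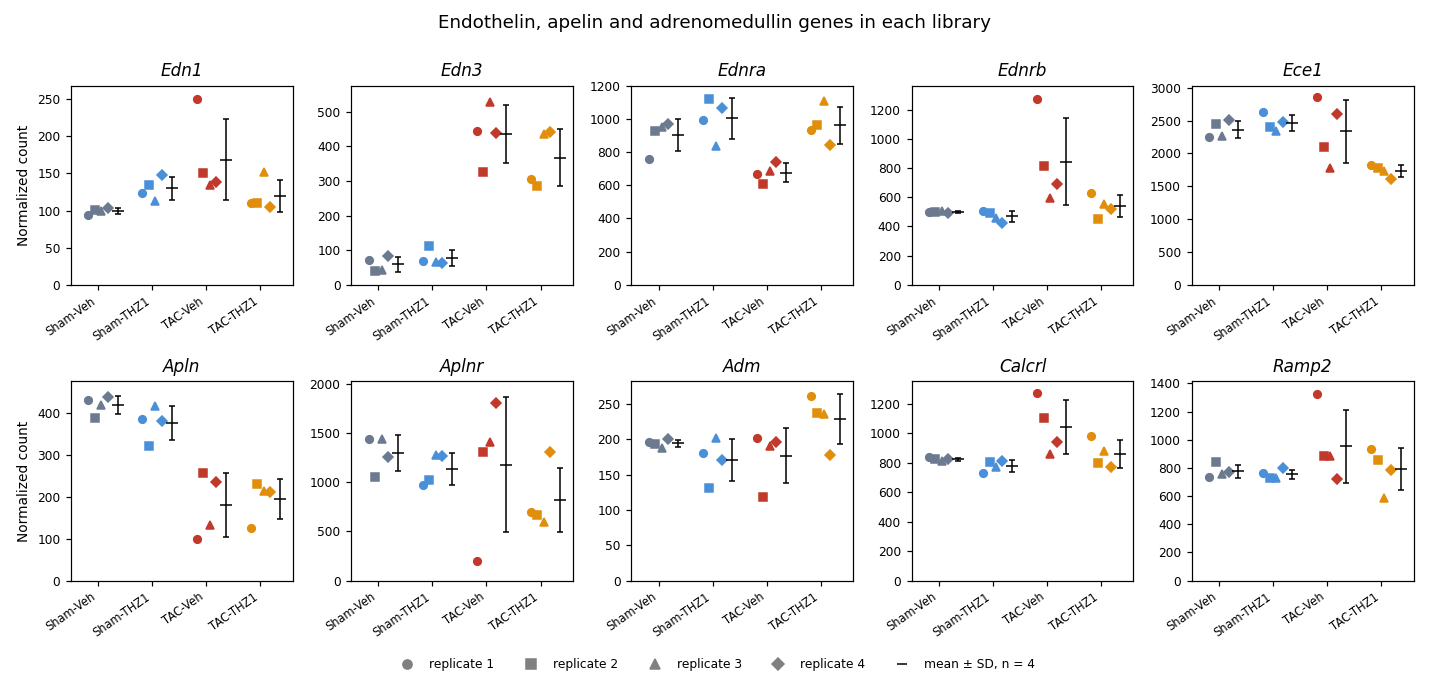
Normalized counts (y axis, from 0) of the 10 genes in each of the 16 libraries by group (x axis), with the marker shape giving the replicate number and the black bar the mean ± SD of 4 libraries. Edn3 sits between 286 and 529 in all TAC libraries and at or under 112 in all sham libraries, and the TAC-Veh 1 library (red circle) lies far below its group for Aplnr, at 203.

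In mm9, the build of the counts, the genes lie at chr13:42396639-42403358 (Edn1, plus strand), chr2:174586120-174609543 (Edn3, plus), chr8:80186930-80248363 (Ednra, minus), chr14:104213842-104243390 (Ednrb, minus), chr4:137418152-137521144 (Ece1, plus), chrX:45378323-45388030 (Apln, minus), chr2:84976517-84980079 (Aplnr, plus), chr7:117771175-117773331 (Adm, plus), chr2:84170783-84265568 (Calcrl, minus) and chr11:101107342-101120860 (Ramp2, plus), and reads were counted over their annotated exons. RefSeq windows (GRCm38.p6) of 250 bases before and 50 after the transcription start were at hand for 8 of the 10 genes, not for Aplnr and Ramp2. They were searched on both strands for ACGTG, a form of the core of the hypoxia response element, and for TGANTCA, the AP-1 motif. The form GCGTG was not searched. ACGTG was in 19.6% of all 32851 windows and, among the members, in those of Edn1, 22 bases after the start, and Ece1, 89 bases before one of its starts. TGANTCA was in 7.81% of all windows and in none of the 11 of the members. The 250 bases before the start are shown, 5′ to 3′ along the gene's strand, for the genes with the largest rise and fall, Edn3 and Apln, and for that start of Ece1, with matches in capitals and GRCm38.p6 coordinates. The capitals hold ACGTG on both strands. A match or its absence concerns only these letters in this window.
Edn3, chr2:174760369-174760618, plus strand: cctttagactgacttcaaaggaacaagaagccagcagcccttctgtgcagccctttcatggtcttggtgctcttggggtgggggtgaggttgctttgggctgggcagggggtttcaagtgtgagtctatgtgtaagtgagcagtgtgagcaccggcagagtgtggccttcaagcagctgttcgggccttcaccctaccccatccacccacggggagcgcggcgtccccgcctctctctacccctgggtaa
Apln, chrX:48034854-48035103, minus strand: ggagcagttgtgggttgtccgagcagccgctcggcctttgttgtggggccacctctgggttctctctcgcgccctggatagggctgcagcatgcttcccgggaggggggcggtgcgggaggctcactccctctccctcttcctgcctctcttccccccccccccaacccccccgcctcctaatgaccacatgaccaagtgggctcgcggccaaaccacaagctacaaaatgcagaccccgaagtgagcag
Ece1, chr4:137913308-137913557, plus strand: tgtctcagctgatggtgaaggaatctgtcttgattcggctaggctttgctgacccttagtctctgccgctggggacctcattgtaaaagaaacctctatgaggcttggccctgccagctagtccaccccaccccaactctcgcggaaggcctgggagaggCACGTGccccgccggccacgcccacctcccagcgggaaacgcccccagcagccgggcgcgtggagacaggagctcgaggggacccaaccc

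The ligand Edn1, the main endothelin of the endothelium, was measured at 94.4, 100.3, 99.9 and 103 normalized counts in Sham-Veh and at 124, 135, 112 and 148 in Sham-THZ1. It reached 250.4, 151, 135 and 139 in TAC-Veh and was at 110.3, 111, 152 and 105 in TAC-THZ1. The TAC-Veh values lay wholly above the Sham-Veh values, and the single value of 250.4 was the highest of all. The rise with TAC was 0.71 ± 0.17 (log2 fold change ± SE, limma, n = 4 per group, adjusted p = 0.00299), and it was 0.50 without TAC-Veh 1. The difference of TAC-THZ1 from TAC-Veh was -0.46 ± 0.17, which did not pass (adjusted p = 0.0505, limma). It did pass without TAC-Veh 3 (-0.55, adjusted p = 0.0258), TAC-Veh 4 (-0.54, adjusted p = 0.0344) or TAC-THZ1 3 (-0.58, adjusted p = 0.0199, limma), and without TAC-Veh 1 it shrank to -0.26 (adjusted p = 0.138, limma). With all libraries it passed in DESeq2 (adjusted p = 0.0414) and edgeR (adjusted p = 0.0491).

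The drug's difference in TAC and its difference in sham hearts had opposite signs for Edn1. In sham hearts the 4 THZ1 values were all above the 4 vehicle values, with a log2 difference of 0.37 (95% interval 0.01 to 0.73, adjusted p = 0.714, limma). The interaction, the log2 drug difference in TAC minus that in sham, was -0.83 ± 0.24 (adjusted p = 0.0383, limma), and Edn1 was the 1 member of 10 below the threshold. Over all genes the interaction was called higher for 4.4% and lower for 5.62%. The call on Edn1 stood in 5 of the 16 fits that left out 1 library, with adjusted p from 0.016 to 0.080 (limma), and was lost without any 1 of the 4 Sham-Veh libraries, Sham-THZ1 1, 2 or 4, TAC-Veh 2, or TAC-THZ1 1, 2 or 4.

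Edn3, an endothelin with low affinity for the A receptor, best known from neural crest and enteric nerve development, gave the largest change of the 10. Its normalized counts were 71.1, 38.5, 41.6 and 82.7 in Sham-Veh and 69.2, 112, 65.4 and 62.8 in Sham-THZ1. In TAC-Veh they were 446, 325, 529 and 439.5, and in TAC-THZ1 306, 286, 435 and 441. No TAC library overlapped any sham library. The log2 fold change with TAC was 2.93 ± 0.25 under vehicle (95% interval 2.40 to 3.45, adjusted p = 3.86e-07, limma), and 0.503% of all tested genes rose more. Under THZ1 it was 2.24 ± 0.25 (adjusted p = 1.34e-04, limma). The drug difference within TAC was -0.25 (interval -0.77 to 0.27, adjusted p = 0.477), and the interaction of -0.68 ± 0.35 did not pass either (adjusted p = 0.222, limma).

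Per kilobase of annotated exon, which allows levels of different genes to be compared, Edn1 was the more abundant endothelin in sham hearts and Edn3 in constricted hearts. The ratio of Edn1 to Edn3 among sham hearts was 3.33 ± 1.24 with vehicle and 3.10 ± 0.830 with THZ1 (SD, n = 4). Among TAC hearts it was 0.701 ± 0.245 with vehicle and 0.586 ± 0.116 with THZ1. All 8 TAC libraries lay below 1 and all 8 sham libraries above 2. These ratios carry no test, and they move with the transcript length chosen for Edn3.

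The enzyme Ece1 showed no detectable change with TAC under vehicle, at -0.04 (interval -0.27 to 0.19, adjusted p = 0.795, limma). Its normalized counts were 2856, 2101, 1784 and 2606 in TAC-Veh, against 2244, 2448, 2263 and 2502 in Sham-Veh and 2630.0, 2403, 2347 and 2479 in Sham-THZ1. In TAC-THZ1 they were 1830.3, 1771, 1737 and 1605, closely grouped and, except for TAC-Veh 3 at 1784, below every other library. Ece1 was lower in TAC-THZ1 than in TAC-Veh by a log2 difference of -0.41 ± 0.11 (adjusted p = 0.0103) and lower than in Sham-THZ1 by -0.51 ± 0.11 (adjusted p = 0.00444, limma). When only the 2 TAC groups entered the fit, the first of these missed the threshold (adjusted p = 0.0833, limma).

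The A receptor Ednra fell with TAC and was higher with THZ1 in TAC. It was measured at 759.5, 926, 953 and 966 normalized counts in Sham-Veh and at 665, 604, 686 and 742 in TAC-Veh, without overlap. In TAC-THZ1 it was at 933, 964, 1107 and 840.2, wholly above TAC-Veh, and in Sham-THZ1 at 996, 1120.1, 836 and 1068. The log2 fold change with TAC was -0.42 ± 0.11 (adjusted p = 0.00438), and TAC-THZ1 exceeded TAC-Veh by 0.51 ± 0.11 (adjusted p = 0.00238, limma). Both calls stood in each of the 16 fits that left out 1 library. TAC-THZ1 differed from Sham-THZ1 by -0.06 (interval -0.29 to 0.16, adjusted p = 0.697, limma).

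The B receptor Ednrb moved the opposite way. It held a narrow range of 493 to 508 normalized counts in Sham-Veh, at 503, 503, 508 and 493, and was at 503, 496, 459 and 421 in Sham-THZ1. TAC-Veh reached 1273, 815, 598 and 693, all above the sham values, and TAC-THZ1 gave 632, 454, 552 and 521. The log2 rise with TAC was 0.69 ± 0.16 (adjusted p = 0.00285), and TAC-THZ1 was below TAC-Veh by -0.59 ± 0.16 (adjusted p = 0.0128, limma). TAC-Veh 1 carried the highest value. Without it the changes were 0.47 and -0.38, both still past the threshold (limma). When only the 2 TAC groups were fitted, the difference with THZ1 missed it (adjusted p = 0.0922, limma).

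The balance of the receptors separated TAC-Veh from the other groups. The ratio of Ednra to Ednrb per kilobase was 0.385, 0.546, 0.845 and 0.790 in the 4 TAC-Veh libraries. Its mean was 1.33 ± 0.228 (SD, n = 4) in TAC-THZ1, and among sham hearts 1.32 ± 0.145 with vehicle and 1.58 ± 0.232 with THZ1. The lowest value outside TAC-Veh was 1.09, so TAC-Veh overlapped with no other group. With the length of the longest transcript the mean ratio was 0.958 in TAC-Veh and 1.99 in TAC-THZ1, against 1.98 and 2.36 in the sham groups with vehicle and THZ1.

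**Figure D2:**
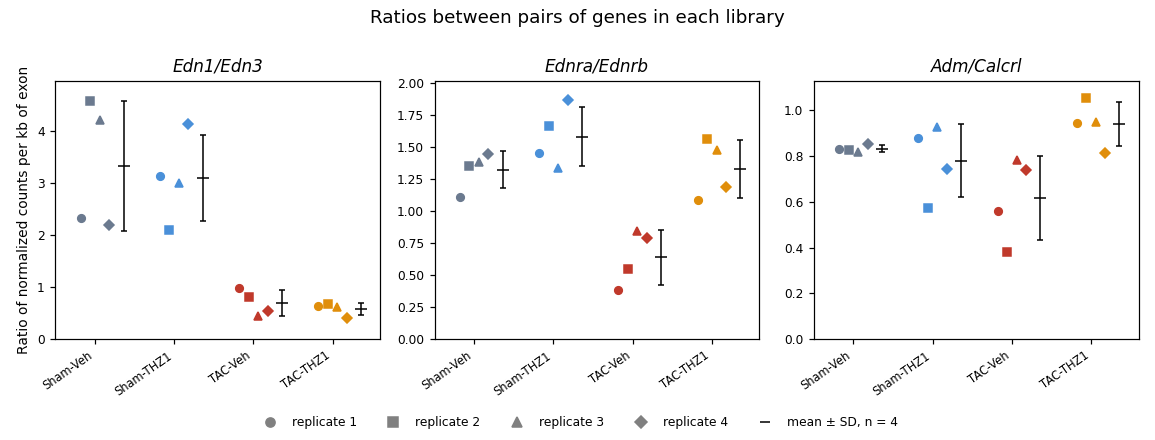
Ratios of normalized counts per kilobase of exon (y axis, from 0) in each library by group (x axis), with the black bar giving mean ± SD of 4 libraries. Edn1/Edn3 is below 1 in all TAC libraries, Ednra/Ednrb is below 0.85 in TAC-Veh only and above 1 in the other groups, and Adm/Calcrl is at most 0.780 in TAC-Veh, below all Sham-Veh and TAC-THZ1 values but overlapping with Sham-THZ1.

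Apln was the one ligand that fell. It was measured at 431, 389.8, 419 and 439 normalized counts in Sham-Veh and at 385, 321, 418 and 381 in Sham-THZ1. In TAC-Veh it was at 99.9, 256, 132 and 235, and in TAC-THZ1 at 124, 232, 213 and 211. Every TAC library was below every sham library. The log2 fold change with TAC was -1.32 ± 0.24 under vehicle (adjusted p = 4.04e-04) and -0.98 ± 0.24 under THZ1 (adjusted p = 0.00996, limma). With THZ1 in TAC it differed by 0.18 (interval -0.34 to 0.69, adjusted p = 0.624, limma), an interval wide enough to hold a sizeable change either way.

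The receptor Aplnr, carried by endothelial cells of the heart among others, was the most variable of the 10 in TAC-Veh. It was at 1442, 1050.0, 1439 and 1257 normalized counts in Sham-Veh and 973, 1019, 1277 and 1265 in Sham-THZ1. TAC-Veh gave 203, 1304, 1408 and 1804, and TAC-THZ1 gave 698, 667, 599 and 1308. No comparison passed in the fit of all libraries, with -0.50 ± 0.47 for TAC (adjusted p = 0.406) and -0.22 ± 0.47 for THZ1 in TAC (adjusted p = 0.758, limma). These values depended on TAC-Veh 1, at 203. Without it the TAC difference was 0.21 and did not pass (adjusted p = 0.439), and TAC-THZ1 was below TAC-Veh by -0.94 (adjusted p = 0.00389, limma). The difference of TAC-THZ1 from Sham-THZ1, which uses no TAC-Veh library, was -0.53 in both fits. Its adjusted p went from 0.433 to 0.0467 without TAC-Veh 1 (limma), as the estimate of the spread shared by all groups changed. The ratio of Apln to Aplnr per kilobase was 0.295 ± 0.119 (SD, n = 4) in TAC-THZ1 and 0.258 ± 0.204 in TAC-Veh. The latter mean rested on TAC-Veh 1, at 0.556, and was 0.159 without it. In sham hearts the ratio was 0.371 ± 0.0440 with vehicle and 0.379 ± 0.0475 with THZ1.

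Adm, whose peptide dilates vessels, did not pass in any comparison of all libraries. Its normalized counts in sham hearts were 196, 193, 188 and 199.9 with vehicle and 181, 131, 202 and 170.2 with THZ1. In TAC hearts they were 202, 119, 190.2 and 197 with vehicle and 262, 238, 236 and 178 with THZ1. The 3 highest values of the series were in TAC-THZ1. The log2 difference was -0.17 ± 0.17 for TAC (adjusted p = 0.436), 0.38 ± 0.17 for TAC-THZ1 against TAC-Veh (adjusted p = 0.0904) and 0.42 ± 0.17 for TAC-THZ1 against Sham-THZ1 (adjusted p = 0.0732, limma). Without TAC-THZ1 4 these last were 0.50 (adjusted p = 0.0394) and 0.54 (adjusted p = 0.0382), and without TAC-Veh 2 they were 0.20 (adjusted p = 0.314) and 0.42 (adjusted p = 0.0251, limma). The last comparison holds no TAC-Veh library, so its 0.42 was unchanged while the estimate of the spread shared by all groups differed.

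Calcrl, the receptor that adrenomedullin and calcitonin gene-related peptide share, rose modestly with TAC. It held 835, 823, 811 and 826 normalized counts in Sham-Veh and 726, 805, 768 and 808 in Sham-THZ1, and reached 1272, 1100.4, 858 and 937 in TAC-Veh. TAC-Veh lay above Sham-Veh in all 4 libraries. In sham hearts the THZ1 values were all below the vehicle values, so Calcrl, like Edn1, showed no overlap there. That log2 difference was -0.09 (adjusted p = 0.95, limma), and the share of all genes without overlap was not counted. TAC-THZ1 was at 978, 798, 879 and 772. The rise with TAC was 0.32 ± 0.10 (adjusted p = 0.0161, limma), and without TAC-Veh 1 it was 0.22 and just missed (adjusted p = 0.0503, limma). The difference with THZ1 in TAC was -0.27 ± 0.10 (adjusted p = 0.0526, limma), on the other side of the threshold in DESeq2 (adjusted p = 0.0378) and in edgeR (adjusted p = 0.0446). In limma it passed without TAC-Veh 3 (-0.36, adjusted p = 0.00853), TAC-Veh 4 (-0.32, adjusted p = 0.0344) or TAC-THZ1 1 (-0.34, adjusted p = 0.0264), and without TAC-Veh 1 it shrank to -0.17 (adjusted p = 0.15).

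Ramp2, the partner that makes CALCRL an adrenomedullin receptor, was at 735, 841, 755 and 767 normalized counts in sham hearts with vehicle and 762, 729, 727 and 797 with THZ1. TAC hearts gave 1324, 887, 887 and 721 with vehicle and 936, 858, 589 and 783 with THZ1. The groups overlapped throughout. The log2 difference with TAC was 0.27 (interval -0.05 to 0.58, adjusted p = 0.162) and with THZ1 in TAC -0.25 (interval -0.57 to 0.06, adjusted p = 0.216, limma). Without TAC-Veh 4 the first was 0.39 and passed (adjusted p = 0.0364, limma). Without TAC-Veh 1 they were 0.097 (adjusted p = 0.544) and -0.085 (adjusted p = 0.626, limma). Ramp2 overlaps Vps25 on the same strand in the annotation, so its level and length are less certain than those of the other genes. The ratio of Ramp2 to Calcrl per kilobase was 1.39 ± 0.0869 (SD, n = 4) in Sham-Veh and 1.35 ± 0.214 in TAC-Veh, and about 3.1 and 3.0 with the longest transcript. The ratio of Adm to Calcrl was 0.615 ± 0.184 in TAC-Veh and 0.937 ± 0.0973 in TAC-THZ1, against 0.831 ± 0.0146 and 0.779 ± 0.159 in the sham groups with vehicle and THZ1.

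In TAC-THZ1 against Sham-THZ1, a comparison that shares no library with TAC-Veh against Sham-Veh, 1 member was higher (Edn3) and 2 were lower (Ece1 and Apln). Both comparisons came from 1 fit of all libraries and so shared an estimate of the spread. Over all genes 11.4% were higher and 12.8% lower. Edn1, Ednra, Ednrb and Calcrl, which were called with TAC under vehicle, had log2 differences of -0.13, -0.06, 0.19 and 0.14 under THZ1. Their 95% intervals were -0.49 to 0.23, -0.29 to 0.16, -0.15 to 0.54 and -0.08 to 0.35. Of these 4, the difference between the responses to TAC was past the threshold in the fit of all libraries only for Edn1 (the interaction above). It was 0.35 ± 0.15 for Ednra (adjusted p = 0.139), -0.50 ± 0.23 for Ednrb (adjusted p = 0.179) and -0.19 ± 0.14 for Calcrl (adjusted p = 0.433, limma). For Ece1, lower with TAC under THZ1 but not under vehicle, it was -0.47 ± 0.15 (adjusted p = 0.0615, limma). Without TAC-Veh 3 it passed for Ednrb (-0.64, adjusted p = 0.0447) and Ece1 (-0.59, adjusted p = 0.00395, limma). Without TAC-Veh 1 it was -0.28 for Ednrb (adjusted p = 0.216), -0.36 for Ece1 (adjusted p = 0.0746) and -0.084 for Calcrl (adjusted p = 0.678, limma).

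**Figure D3:**
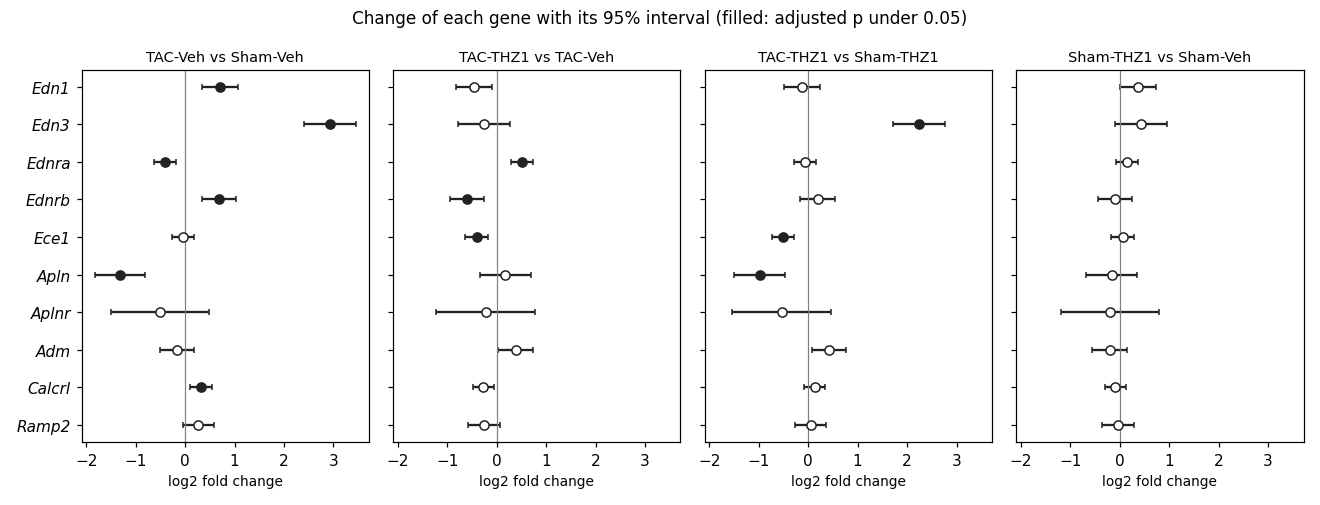
Log2 fold change (x axis) of each gene (y axis) in 4 comparisons, with 95% intervals from limma and filled points for an adjusted p under 0.05. Edn3 lies at 2.93 and 2.24 in the comparisons of TAC with sham, Apln at -1.32 and -0.98, and all points are open for THZ1 in sham hearts.

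Across the 10 genes, the median log2 change was 0.11 with TAC under vehicle and -0.25 with THZ1 in TAC, against -0.003 and 0.01 over all tested genes. It was -0.06 with THZ1 in sham hearts and -0.01 with TAC under THZ1. Per kilobase in Sham-Veh, Ece1 was highest at 446 ± 24.6 (SD, n = 4), followed by Aplnr at 364 ± 52.2 and Ramp2 at 235 ± 13.9. Calcrl at 169 ± 2.04 and Ednra at 165 ± 17.5 did not differ beyond their spread. Adm was at 140 ± 3.53, Apln at 133 ± 6.81 with overlapping values, and Ednrb at 124 ± 1.60. Edn1 at 42.4 ± 1.59 and Edn3 at 14.2 ± 5.31 were lowest and separate. This order depends on the length used: with the longest transcript Ramp2 was highest at 524 ± 31.1, above Ece1 at 491 ± 27.0, and Ednra at 249 ± 26.5 was apart from Calcrl. In TAC-Veh, Edn3 rose to 106 ± 20.4 and Apln dropped to 57.4 ± 24.3, while Edn1 was at 72.0 ± 23.4.

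Of 26 other genes of these pathways, 25 were in the table and 19 passed the filter. The precursor gene Edn2, the enzyme gene Kel, the peptide genes Adm2, Calca and Calcb and the receptor gene Calcr did not pass, with at most 3.53 normalized counts in any library. With TAC, 3 of the 19 rose and 3 fell, with a median log2 change of -0.02, against 21.4% and 23.6% of all tested genes. With THZ1 in TAC, 4 were higher and 4 lower, with a median of 0.02, against 15.1% and 14.2%. Beside the genes described next, these calls were Furin, a protease that cleaves peptide precursors, at -0.30 with TAC, and with THZ1 the scavenger receptor Cxcr7 (0.36) and the G protein subunit Gna11 (0.19) on the higher side and the G protein subunit Gnaq (-0.22) and the phospholipase Plcb4 (-0.42) on the lower, named after their values were seen. Pam, the enzyme that amidates adrenomedullin, went from 15727 ± 415 (SD, n = 4) in Sham-Veh to 33702 ± 2812 in TAC-Veh and 22925 ± 2303 in TAC-THZ1. Its log2 change with TAC was 1.10 ± 0.08 (adjusted p = 8.54e-08), and that of TAC-THZ1 against TAC-Veh was -0.56 ± 0.08 (adjusted p = 1.71e-04, limma).

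The converting enzyme Ece2 changed in the same pair of directions, at 92.8 ± 9.38, 180.0 ± 37.6 and 126 ± 24.3 normalized counts (SD, n = 4) in Sham-Veh, TAC-Veh and TAC-THZ1. Its log2 changes were 0.93 ± 0.16 (adjusted p = 2.02e-04) and -0.51 ± 0.16 (adjusted p = 0.0244, limma). Mme, or neprilysin, which degrades several vasoactive peptides, fell by 1.96 on the log2 scale with TAC (adjusted p = 8.68e-04) and was higher by 1.43 with THZ1 in TAC (adjusted p = 0.0131, limma). It was at 193 ± 15.2, 62.1 ± 43.4 and 136 ± 29.1 normalized counts (SD, n = 4) in Sham-Veh, TAC-Veh and TAC-THZ1. The interaction passed for Pam (-0.53, adjusted p = 0.00939) but not for Ece2 (adjusted p = 0.0723) or Mme (adjusted p = 0.129, limma). Alternative fits were read for the 10 genes only, so calls on the other pathway genes were not checked in them.

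The partners of CALCRL split. Ramp1, which pairs with it in the receptor for calcitonin gene-related peptide, fell with TAC by 1.22 on the log2 scale (adjusted p = 5.52e-04) and was higher by 0.98 with THZ1 in TAC (adjusted p = 0.00574, limma). Ramp3, which makes the second adrenomedullin receptor, rose with TAC by 0.81 (adjusted p = 0.0056) and differed by -0.39 with THZ1 in TAC (adjusted p = 0.183, limma). Ramp1 was at 132 ± 34.0, 57.5 ± 19.7 and 112 ± 30.6 normalized counts (SD, n = 4) in Sham-Veh, TAC-Veh and TAC-THZ1, and Ramp3 at 79.5 ± 9.28, 149 ± 69.3 and 107 ± 17.3. The interaction passed for neither Ramp1 (adjusted p = 0.0685) nor Ramp3 (adjusted p = 0.273, limma).

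**Figure D4:**
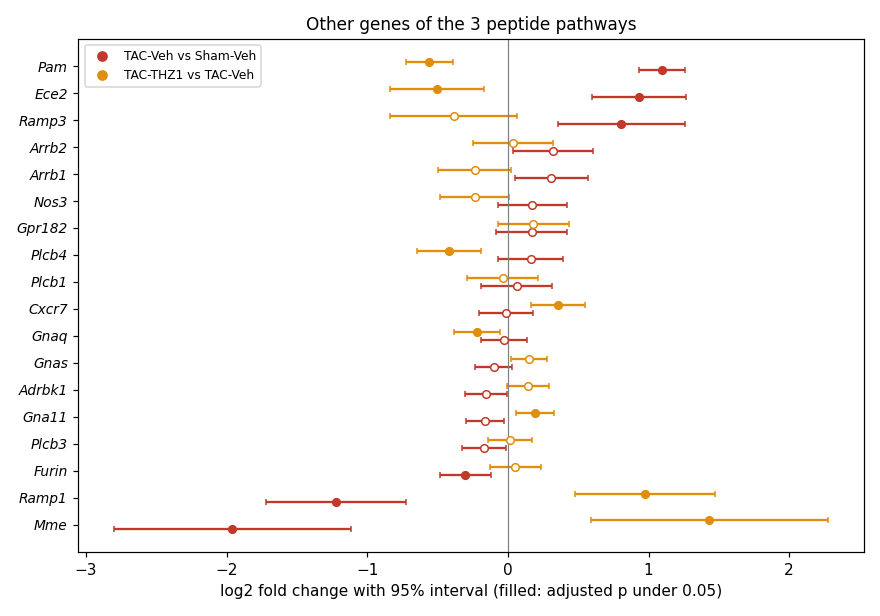
Log2 fold change with 95% interval (x axis) of 18 other pathway genes that passed the filter (y axis), for TAC under vehicle in red and THZ1 in TAC in orange, filled at an adjusted p under 0.05 (limma). Pam and Ece2 lie at 1.10 and 0.93 with TAC and at -0.56 and -0.51 with THZ1, while Mme and Ramp1 lie on the opposite sides.

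Edn1, Apln and Adm are known targets of the hypoxia response. Of 16 other genes of that response, 9 rose and 3 fell with TAC, with a median log2 change of 0.41. Over all tested genes 21.4% were higher and 23.6% lower. With THZ1 in TAC, 1 was higher and 6 lower, with a median of -0.17, against 15.1% and 14.2% of all tested genes. Among the largest changes were those of Car9, a carbonic anhydrase, at 2.28 with TAC and -1.43 with THZ1 in TAC, and P4ha1, a collagen prolyl hydroxylase, at 1.01 and -0.67. Each of these 4 changes passed the threshold (limma). The 3 that fell with TAC, named after their values were seen, were the angiogenic factor Vegfa (-0.26), the oxygen-sensing hydroxylase Egln1 (-0.53) and the hexokinase Hk2 (-0.52), and Egln1 was the 1 gene higher with THZ1 in TAC (0.46). Car9 was scarce, with a mean of 3.48 normalized counts in Sham-Veh and 21.3 in TAC-Veh. Of the 3 peptides, Edn1 rose, Apln fell and Adm was not called with TAC.

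Markers of the cells that carry these genes moved with some of the results. The 10 endothelial markers summed to 20347 to 21877 normalized counts in TAC-THZ1 and 21583 to 26734 in TAC-Veh. In the sham groups the sum was 23458 to 25687 with vehicle and 25641 to 27576 with THZ1, and none was at 0. Over all tested genes 21.4% were higher and 23.6% lower with TAC, and 15.1% and 14.2% with THZ1 in TAC. In TAC-THZ1 against Sham-THZ1 these shares were 11.4% and 12.8%. With TAC 2 of the 10 endothelial markers were higher (Egfl7 and Emcn) and 2 lower (Cdh5 and Kdr), with a median log2 change of 0.01 (limma). With THZ1 in TAC 1 was higher (Emcn) and 5 lower (Pecam1, Cdh5, Tek, Cldn5 and Erg), with a median of -0.21, and in TAC-THZ1 against Sham-THZ1 2 were higher and 6 lower, with a median of -0.35. Their part in the lower Ece1 and Ednrb of TAC-THZ1 was not tested. Taking each gene relative to the mean of these markers shifts all genes of a contrast by the same amount, so it cannot decide this. The difference from TAC-Veh was then -0.20 for Ece1 (adjusted p = 0.104) and -0.39 for Ednrb (adjusted p = 0.0543, limma). On that scale Adm was higher in TAC-THZ1 than in TAC-Veh, by 0.59 (adjusted p = 0.0094, limma), and the median of all genes was 0.22.

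Other marker lists gave the following counts in the same tests, first with TAC under vehicle and then with THZ1 in TAC. The shares over all tested genes were 21.4% higher and 23.6% lower, then 15.1% and 14.2%. Of 6 fibroblast markers, 4 rose with TAC and 4 were lower with THZ1, and their sum was 19367 to 21729 in Sham-Veh, 55673 to 112209 in TAC-Veh and 24208 to 36585 in TAC-THZ1. Much of this change was in Postn, with means of 1348, 38153 and 4061 in these groups, while Pdgfra and Tcf21 were called in neither comparison. Of 6 cardiomyocyte markers, 4 fell with TAC and 4 were higher with THZ1. Of 6 pericyte markers, 4 fell with TAC, and 2 were higher and 1 lower with THZ1. Of 5 smooth muscle markers, 1 rose and 2 fell, then 1 was higher and 1 lower. Of 5 lymphatic endothelial markers, 2 rose and 1 fell, then 2 were lower. Of 4 tested venous and endocardial markers, 2 rose, and 0 were called with THZ1 by limma (1 at an unadjusted p under 0.05). Of 5 macrophage markers, 2 rose, and 0 were called with THZ1 (0 at an unadjusted p under 0.05). Of 5 endothelial tip markers, a cell state in which Apln is often counted, 0 were called in either comparison, with 1 at an unadjusted p under 0.05 in each. The part of these shifts in the results on the 10 genes was not tested.

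For each gene called in any comparison, the genes whose centred log2 values lay closest to it over the 16 libraries were found by the root mean square difference, among genes with a mean of at least 100. Nearest to Edn3 were Aqp8, a water channel (0.438), Nlrc3 (0.486) and Tnfrsf12a, the receptor of the cytokine TWEAK (0.549), on a log2 spread of 1.39 for Edn3 itself. Nearest to Apln were Tnrc18 (0.254), Erc1 (0.273) and Rgma (0.280). Ednrb was closest to Tgfbr1, a receptor of transforming growth factor beta (0.123), Cyth3 (0.129) and Pi4k2b (0.130). Ednra was closest to BC034090 (0.108), the nuclear receptor gene Esrrb (0.110) and Cox10 (0.119). Edn1 was closest to Adam15 (0.118), Picalm (0.143) and Dnttip2 (0.166), Ece1 to Wasf2 (0.0949), Foxp1 (0.0968) and Heyl (0.0976), and Calcrl to Sdcbp (0.0710), Rap1b (0.0750) and Brms1 (0.0813). These are descriptions over libraries that share the same groups.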

How the data were processed

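The authors aligned stranded mRNA reads of 16 ventricles to mm9 with TopHat2 2.1.1, counted them per GENCODE gene with HTSeq, and divided them by DESeq2 size factors over all mouse libraries. Each deposited signal value is thus a size-factor normalized count. All 22372 gene identifiers matched GENCODE on NCBIM37 (mm9), which gave symbols, positions and exon lengths, and 4484 genes were at 0 everywhere. Values were whole multiples of 1 read (tolerance 0.01), which gave the recovered reads. Replicates were separate samples, so p-values measure the spread between them, and no pair of one group agreed within sampling noise (chi-square per degree of freedom 2.66 to 80.1). No sequencing batch was labelled.

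log2(normalized count + 1) was fitted in limma 3.58.1 (R 4.3.3) with 1 mean per group, eBayes with a trend and no covariates, for 13331 genes with at least 10 in at least 4 libraries. Fold changes on this scale understate those of scarce genes. The 4 groups shared 1 estimate of the spread per gene. Replicates differed less in the sham groups (chi-square per degree of freedom at most 6.52) than in TAC-Veh (at least 43.5). P-values were adjusted by Benjamini-Hochberg over all tested genes, separately for each of the 5 contrasts, with 0.05 as threshold. The scripts were tested on simulated data. Alternatives covered pseudocounts, filters, scaling, samples fitted, replicate block, weights, DESeq2 1.42.0 and edgeR 4.0.16 on recovered reads, thresholds and left-out libraries. The members, gene lists and alternatives were chosen with earlier results of these data known. Named beside the members were the pathway genes with the 4 smallest adjusted p with TAC (Pam, Ece2, Ramp1, Mme) and the fixed Ece2, Mme, Ramp1 and Ramp3, of the 3 hypoxia genes with the largest change with TAC Car9 and P4ha1, and the 3 genes most like each called member. Apela, a second ligand of Aplnr, was not matched and is not analysed here. Some genes that the rule names are not reported here. Figures were drawn with Matplotlib 3.10.9.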

Additional observations from a re-analysis of the deposited data

Results flagged for a closer look

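The interaction of THZ1 with TAC was past the threshold for Edn1, at -0.83 on the log2 scale (adjusted p = 0.0383, limma), so that the drug's difference in constricted hearts lay below that in sham hearts. This call stood in 5 of the 16 fits that left out 1 library. The drug's difference itself passed neither in constricted hearts (adjusted p = 0.0505) nor in sham hearts (adjusted p = 0.714, limma).

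Within groups of 4, 5 single values stood apart from the other 3 (Dixon's gap test), out of 60 groups of values and ratios examined, of which chance would flag about 5%. These were Edn1 in TAC-Veh 1, at 250.4 normalized counts, Edn1 in TAC-THZ1 3, at 152, Edn3 in Sham-THZ1 2, at 112, Aplnr in TAC-THZ1 4, at 1308, and Adm in TAC-Veh 2, at 119.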

How the results depend on the processing

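Of 24 same-numbered pairs across groups, 2 correlated above 0.1 in their deviations from the group means (range -0.431 to 0.164). Differently numbered pairs were not examined, so these values cannot decide whether the replicate numbers pair the samples. The fit with a replicate block changed 1 call, leaving 0 members lower in the interaction (Edn1, adjusted p = 0.0621, limma).

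Counts of called members moved as follows, with the number of all genes called in parentheses. With log2 fold thresholds of 1 for TAC and 0.89 for THZ1, 1 was higher and 1 lower with TAC (1068 genes, against 6003), 0 either way with THZ1 in TAC (729), and 0 lower in TAC-THZ1 against Sham-THZ1 (270). The study's methods give these thresholds only for rises in TAC-Veh against Sham-Veh and for falls with THZ1 between the 2 TAC groups. Here they were applied in both directions and carried over to the other contrasts, except the interaction. At an adjusted p under 0.01, 3 were higher with TAC (4053 genes). With THZ1 in TAC, members called lower were 4 under upper quartile scaling (3873 genes), DESeq2 (4163) and edgeR (3981). They were 3 with a mean of at least 50 (3556, Edn1 added) or quantile normalization (4029, Calcrl added). They were 0 when only the compared groups were fitted (1399, against 3918 in the fit of all groups) or at 0.01 (2058). Relative to the endothelial markers, 0 were lower and 2 higher (5662). In TAC-THZ1 against Sham-THZ1, 2 were higher under upper quartile scaling (3222 genes), and 5 higher and 1 lower relative to those markers (7215, against 3220). In the interaction, 2 were lower in DESeq2 (1813, against 1336) and with array weights (1832), 0 with genes above 0 in any library kept (1077) or at 0.01 (263), and 2 higher and 0 lower relative to those markers (5131). Quantile normalization there called Ece1 in place of Edn1 (1455 genes). Array weights called 1 higher with THZ1 in sham hearts (513 genes, against 9, 465 when only these groups were fitted and 30 in DESeq2), and over all genes 2412 with THZ1 in TAC and 5011 in TAC-THZ1 against Sham-THZ1, where 0.01 left 1254. Leaving out 1 library gave 3 to 15 genes in sham hearts, 1978 to 4200 in TAC-THZ1 against Sham-THZ1, and 690 to 2479 in the interaction. The scaling on endothelial markers, chosen after seeing the data, shifted the median of all genes to between 0.22 and 0.35 in the contrasts with TAC-THZ1 and to -0.12 with THZ1 in sham hearts.

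Leaving out 1 library gave 2 to 4 lower and 1 to 2 higher with THZ1 in TAC. Over all genes 2683 to 4576 were then called, against 3918. There were 4 lower without TAC-Veh 3 (4576 genes) or TAC-Veh 4 (4160), and 2 higher without TAC-THZ1 4 (3439). In TAC-THZ1 against Sham-THZ1, 1 to 2 were higher (2 without TAC-Veh 2, with 3472 genes, or TAC-THZ1 4, with 2422). In the interaction, 0 to 3 were lower (3 without TAC-Veh 3, with 2479 genes).

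Of 1590 recomputed single values, 23 changed sign, none of them called in the fit of all libraries. With TAC, Aplnr ranged from -0.84 to 0.21 (without TAC-Veh 4 and 1), Ece1 from -0.14 to 0.083 (without TAC-Veh 1 and 3, and 0.0040 without TAC-Veh 2), and Adm from -0.24 to 0.014 (without TAC-Veh 1 and 2). With THZ1 in TAC, Apln ranged from -0.071 to 0.38 (without TAC-Veh 1 and 2) and Aplnr from -0.94 to 0.11 (without TAC-Veh 1 and 4). Ramp2 ranged from -0.066 to 0.0013 with THZ1 in sham hearts (without Sham-THZ1 4 and Sham-Veh 2) and from -0.037 to 0.19 in TAC-THZ1 against Sham-THZ1 (without TAC-THZ1 1 and 3). The Aplnr interaction of -0.03 ranged from -0.75 to 0.30 as libraries were left out. Relative to the endothelial markers, Ece1 was -0.063 with THZ1 in sham hearts, Edn1 0.20 and Ednra 0.26 in TAC-THZ1 against Sham-THZ1, and Aplnr, Calcrl and Ramp2 0.30, 0.15 and 0.12 in the interaction. The causes were not tested. Of the rest, 34 lost and 34 gained a call, 1490 kept their side of the threshold and 9 ratios moved with the transcript length. With 4 mice per group, intervals of about 0.2 to 1.0 on either side leave modest changes of these genes undetectable.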
